A study of Mus musculus with 6 samples.

Results

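The HoxB cluster of the mouse is a row of 10 homeobox genes, Hoxb1 to Hoxb9 and Hoxb13, and it was followed here in the proximal and distal colon. A gene was taken as measured where a probe set of the array is annotated to that gene and to no other, and the brightest such probe set, by its mean in all 6 arrays, stood for it. That gave 9 of the 10 genes, among 18193 genes tested in all. Hoxb8 has no probe set of its own in the annotation used, and shares one with Hoxb7. The samples are total RNA from the large intestine of untreated female C57BL/6J mice, an inbred strain, with 3 libraries labelled proximal colon and 3 labelled distal colon. The design text says that 3 animals gave tissue from both regions. Every library was hybridised to 1 array, and the values are the authors' log2 values per probe set, on which a difference of 1 is a 2-fold change. No age, no layer of the wall and no detection call is given in the labels.

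Hox genes encode transcription factors that give cells their position along the head to tail axis. They lie in clusters whose gene order matches the order in which they are used along the body, with low paralog numbers towards the head and number 13 at the tail end. In the gut they stay active after birth, in the muscle and connective tissue of the wall and, for some members, in the epithelium. In bulk tissue, fewer cells of a type and less RNA per cell cannot be told apart.

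The HoxB values of a pair of libraries went against what their labels say, so each library is called by its label. Over the 9 HoxB genes, the library labelled proximal 1 differed from those labelled distal 1 and distal 2 by a root mean square of 0.34 and 0.35 on the log2 scale. It differed from proximal 2 and proximal 3 by 3.10 and 3.16. The library labelled distal 3 differed from proximal 2 and proximal 3 by 0.14 and 0.13, and from distal 1 and distal 2 by 3.28 and 2.95. Over the 18157 genes that remain when Hox genes are left out, the same libraries lay close to each other. There the library labelled proximal 1 was 0.322 from distal 1 and 0.598 from proximal 2, and distal 3 was 0.251 from proximal 2 and 0.631 from distal 1. Results are therefore given for all 6 libraries as labelled and for the 4 libraries that remain without proximal 1 and distal 3. The second choice was made after seeing the data. Its p-values overstate the evidence, because the libraries left out were picked from their profiles over all genes.

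Start windows were available for only 3 of the 10 genes and are shown first. They are those of Hoxb4, which differed between libraries, Hoxb1, whose signal stayed low, and Hoxb8, which the array reads only together with Hoxb7. Each window runs from 250 bases before to 50 bases after a RefSeq start (GRCm38.p6, plus strand), at chr11:96365508-96365807 for Hoxb1, chr11:96318017-96318316 for Hoxb4 and chr11:96281655-96281954 for Hoxb8. The annotated span of Hoxb8 begins at 96279401, before its window, so that window belongs to a start inside the span. For Hoxb1 the span begins at 96365746, slightly before the start used. Capitals mark TTTATG, a core of caudal (Cdx) binding sites, and TGATNNAT, a form of the joint Pbx and Hox site, on either strand.
Hoxb1: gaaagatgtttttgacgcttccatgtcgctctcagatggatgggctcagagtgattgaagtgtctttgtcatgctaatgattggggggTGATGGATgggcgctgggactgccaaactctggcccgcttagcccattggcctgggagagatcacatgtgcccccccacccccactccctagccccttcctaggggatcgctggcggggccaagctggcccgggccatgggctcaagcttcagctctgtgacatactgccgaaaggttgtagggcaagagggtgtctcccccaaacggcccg
Hoxb4: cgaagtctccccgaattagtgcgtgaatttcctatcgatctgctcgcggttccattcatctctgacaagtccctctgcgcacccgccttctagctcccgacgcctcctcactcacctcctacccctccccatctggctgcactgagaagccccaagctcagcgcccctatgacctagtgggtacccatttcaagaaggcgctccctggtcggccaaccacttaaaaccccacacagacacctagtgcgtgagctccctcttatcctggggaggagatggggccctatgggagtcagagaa
Hoxb8: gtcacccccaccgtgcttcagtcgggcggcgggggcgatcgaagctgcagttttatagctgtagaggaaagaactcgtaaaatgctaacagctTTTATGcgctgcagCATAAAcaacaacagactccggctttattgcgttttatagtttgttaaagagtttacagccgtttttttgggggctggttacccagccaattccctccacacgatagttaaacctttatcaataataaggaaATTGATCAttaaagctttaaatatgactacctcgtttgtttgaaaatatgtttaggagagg
The Hoxb8 window holds TTTATG at 2 places and TGATNNAT at 1. The Hoxb1 window holds TGATNNAT at 1 place and no TTTATG, and the Hoxb4 window holds neither. No match overlaps another. Of the 32851 windows of this length in the RefSeq table, 11.9% hold TTTATG and 8.85% hold TGATNNAT. The share of G and C was 59.3% for Hoxb1, 58.0% for Hoxb4 and 42.3% for Hoxb8, against a median of 52.7% over all windows.

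As labelled, no HoxB gene differed between the regions past the threshold. In the 4 libraries, 5 of the 9 genes, Hoxb2, Hoxb3, Hoxb4, Hoxb5 and Hoxb6, were lower in the distal libraries, Hoxb13 was higher, and Hoxb1, Hoxb7 and Hoxb9 did not pass. The differences ran from -4.30 for Hoxb6 to 7.03 for Hoxb13. Limma (two-sided, p adjusted by Benjamini-Hochberg across the 18193 genes, threshold 0.05) called 0% of all genes in the 6 libraries as labelled, and 19.2% in the 4 libraries, 11.5% lower and 7.71% higher in distal. The median difference was -1.81 over the 9 HoxB genes and -0.045 over all genes in the 4 libraries. As labelled, the adjusted p of the 9 genes ran from 0.824 to 0.993, and 0 of 9 had an unadjusted p under 0.05, as did 3.05% of all genes. The calls for Hoxb2, Hoxb5 and Hoxb6 were lost without the library labelled proximal 2 or the one labelled proximal 3, at almost the same difference. In those fits the spread within groups comes from distal 1 and distal 2 alone.

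**Figure D1:**
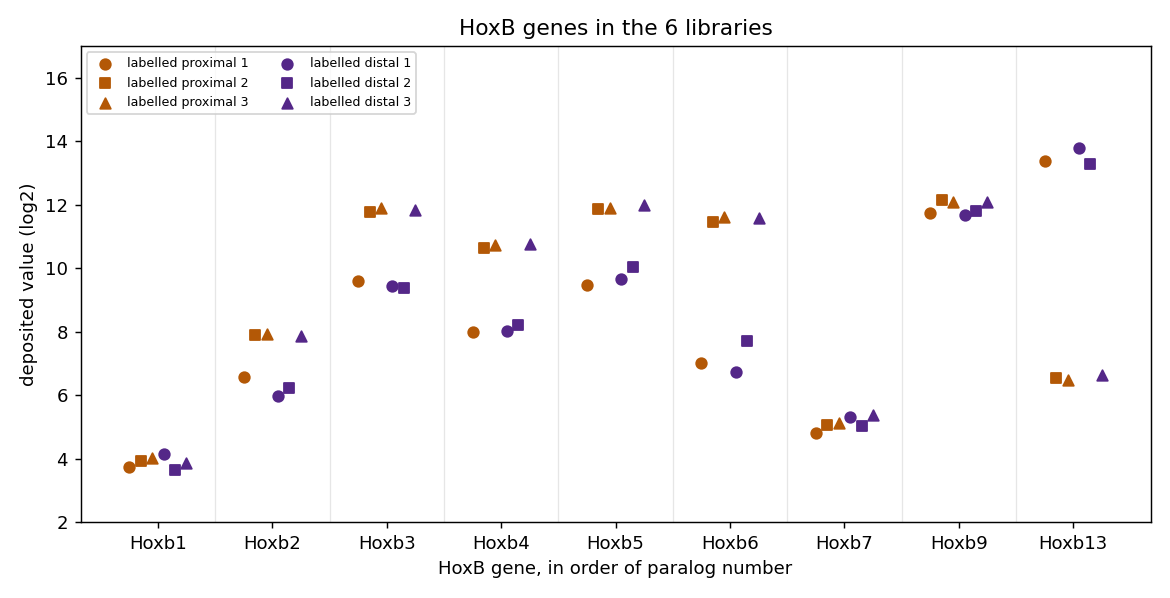
Deposited log2 value (vertical axis) of each of the 9 measured HoxB genes, in order of paralog number (horizontal axis), with 1 point per library, orange for libraries labelled proximal and purple for those labelled distal. For Hoxb2 to Hoxb6 the libraries labelled proximal 2, proximal 3 and distal 3 lie above the other 3, for Hoxb13 below them, and for Hoxb1, Hoxb7 and Hoxb9 the whole range is 0.52, 0.57 and 0.48; levels of different genes cannot be compared, since each has its own probes.

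At the head end of the cluster, Hoxb1, which marks a single segment of the embryonic hindbrain, measured 3.74, 3.92 and 4.01 in proximal 1, 2 and 3, and 4.15, 3.63 and 3.88 in those labelled distal 1, 2 and 3. All 6 values lie under 6.54, the lower quartile over genes and libraries, and background can hide a difference at that level. That quartile marks low signal and is not a measured background, and the lowest value of any probe set is 2.91. The difference was -0.08 (SE 0.19) in the 4 libraries, with a limma adjusted p of 0.823.

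Hoxb2, which acts next to Hoxb1 in the hindbrain, measured 6.56, 7.91 and 7.93 in proximal 1, 2 and 3. It measured 5.98, 6.24 and 7.85 in those labelled distal 1, 2 and 3. The labelled groups overlap, because proximal 1 is low and distal 3 is high. In the 4 libraries Hoxb2 was lower in distal by a log2 difference of -1.81 (SE 0.13), with a limma adjusted p of 0.00170. The mean of the distal pair, 6.11, is under 6.54, so the 3.51-fold change may be only a lower bound.

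Hoxb3, which patterns the hindbrain and the pharynx, measured 9.60, 11.78 and 11.91 in the proximal libraries 1, 2 and 3, and 9.43, 9.37 and 11.84 in the distal libraries 1, 2 and 3. Hoxb4, known for expanding blood stem cells when it is overexpressed, measured 7.99, 10.63 and 10.73 in proximal 1, 2 and 3, and 8.02, 8.22 and 10.75 in distal 1, 2 and 3. In both genes the libraries labelled proximal 1, distal 1 and distal 2 are low, the other 3 are high, and the labelled groups overlap. Hoxb3 differed by -2.44 (SE 0.11, limma adjusted p = 0.000456), and Hoxb4 by -2.56 (SE 0.12, limma adjusted p = 0.000530) in the 4 libraries. The Hoxb3 gene is annotated over a span that contains Hoxb4. The start window of Hoxb4 printed above holds neither motif searched.

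Hoxb5 acts in the neural crest cells that build the nervous system of the gut. It measured 9.48, 11.87 and 11.91 in proximal 1, 2 and 3, and 9.67, 10.04 and 11.99 in those labelled distal 1, 2 and 3. The difference in the 4 libraries was -2.04 (SE 0.15, limma adjusted p = 0.00195), 4.10-fold lower in distal.

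Hoxb6, a gene of the trunk and lateral mesoderm, had the largest measured difference among the 5 genes that were lower in distal. Its values were 7.0, 11.45 and 11.60 in proximal 1, 2 and 3, and 6.72, 7.72 and 11.58 in distal 1, 2 and 3. The libraries labelled distal 1 and distal 2 lie 1.00 apart, a wider gap than in any other of the 6 genes that passed. The difference in the 4 libraries was -4.30 (SE 0.33, limma adjusted p = 0.00198), 19.8-fold lower in distal. Over the 3 libraries of each label, the mean of Hoxb6 was 10.02 ± 2.61 (SD, n = 3) for proximal and 8.67 ± 2.57 (SD, n = 3) for distal. That gap of -1.34 (SE 1.68) had a limma adjusted p of 0.849.

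Hoxb7, whose promoter is widely used to mark the embryonic kidney duct, stayed between 4.82 and 5.39 in all 6 libraries on its own probe set. Its difference was 0.07 (SE 0.13, limma adjusted p = 0.743) in the 4 libraries, and all its values lie under 6.54. The probe set annotated to both Hoxb8 and Hoxb7 measured 4.80, 9.61 and 9.70 in proximal 1, 2 and 3. It measured 4.28, 4.75 and 9.76 in distal 1, 2 and 3. Hoxb8 is known for its part in blood cell progenitors and in the axial skeleton. The shared probe set was lower in distal by -5.14 (SE 0.18, limma adjusted p = 0.000227 over 45037 probe sets, of which 23% were called). Its distal pair averaged 4.52, under 6.54, so that difference may be only a lower bound. Signal from Hoxb8 and signal from Hoxb7 cannot be told apart on this probe set.

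Hoxb9, a gene of the thoracic skeleton, was bright and nearly even. It measured 11.75, 12.16 and 12.08 in proximal 1, 2 and 3, and 11.68, 11.80 and 12.10 in distal 1, 2 and 3. The difference in the 4 libraries was -0.38 (SE 0.11, limma adjusted p = 0.0709) and did not pass. The distal 1 and 2 values lie below the proximal 2 and 3 values. Pairs without overlap, in either direction, occur in 7 of the 9 HoxB genes and in 62.2% of all genes. As labelled, the groups overlap in all 9 HoxB genes, and 7.33% of all genes do not overlap.

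At the tail end, Hoxb13, which marks the hindmost body axis and the epithelium of the rectum and prostate, ran in the opposite direction. It measured 13.39, 6.53 and 6.48 in proximal 1, 2 and 3, and 13.78, 13.29 and 6.65 in those labelled distal 1, 2 and 3. The values are either above 13 or below 7, with no library between. In the 4 libraries Hoxb13 was higher in distal by 7.03 (SE 0.18, limma adjusted p = 0.000109). The mean of the lower pair, 6.51, is just under 6.54, so the 131-fold change may be only a lower bound. As labelled the difference was 2.44 (SE 2.58, limma adjusted p = 0.833).

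**Figure D2:**
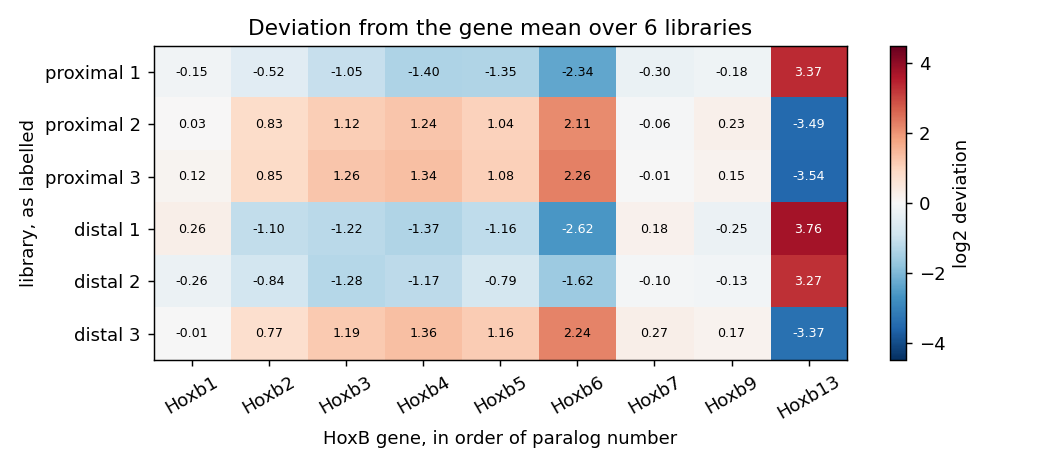
Deviation of each library (rows, as labelled) from the mean of the gene over the 6 libraries, on the log2 scale, for the 9 HoxB genes in order of paralog number (columns). In the row labelled proximal 3 the deviation is 0.12 at Hoxb1, climbs to 2.26 at Hoxb6, is 0.15 at Hoxb9 and -3.54 at Hoxb13; the row labelled distal 1 runs from 0.26 to -2.62, -0.25 and 3.76 at the same genes.

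Read by position, each library had one of a pair of profiles along the cluster. The libraries labelled proximal 2, proximal 3 and distal 3 lay above the gene means by 0.77 to 0.85 at Hoxb2, by 1.04 to 1.16 at Hoxb5 and by 2.11 to 2.26 at Hoxb6, and below them by 3.37 to 3.54 at Hoxb13. The libraries labelled proximal 1, distal 1 and distal 2 showed the opposite signs at these genes, from -0.52 to -1.10 at Hoxb2 and from 3.27 to 3.76 at Hoxb13. These signs are a description of libraries whose values also placed them, and carry no test.

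The libraries that went against their labels can be set on a scale from the mean of proximal 2 and 3, at 0%, to the mean of distal 1 and 2, at 100%. The library labelled proximal 1 lay at 75.1% for Hoxb2, 91.8% for Hoxb3, 105% for Hoxb4 and for Hoxb6, 118% for Hoxb5 and 97.9% for Hoxb13. The library labelled distal 3 lay between -4.91% for Hoxb5 and 3.87% for Hoxb2 in these 6 genes. Neither library therefore sat midway for any of the 6 genes that passed. The library labelled distal 2 was nearer the proximal pair than distal 1 was in 6 of the 7 genes whose pairs do not overlap, with Hoxb3 as the exception. The gaps between distal 1 and distal 2 were 0.26 for Hoxb2, 0.37 for Hoxb5 and 1.00 for Hoxb6, while those between proximal 2 and proximal 3 were 0.02, 0.04 and 0.15. Distal 2 minus distal 1 was -0.06 for Hoxb3, 0.20 for Hoxb4 and -0.49 for Hoxb13. Proximal 3 minus proximal 2 was 0.13, 0.10 and -0.05 for these genes, so for Hoxb3 the proximal pair had the wider gap.

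Second probe sets gave the same direction where they exist. Hoxb3 and Hoxb4 have 2 probe sets each. The dimmer one of Hoxb3 measured 7.29, 9.01 and 8.96 in proximal 1, 2 and 3 and 7.34, 7.63 and 9.21 in distal 1, 2 and 3. Its difference in the 4 libraries was -1.50 (SE 0.14, limma adjusted p = 0.00300), smaller than the -2.44 of the brighter one. The dimmer one of Hoxb4 differed by -2.08 (SE 0.22, limma adjusted p = 0.00392), with values from 5.79 in proximal 1 to 8.46 in proximal 3, and its distal pair was under 6.54 as well. Both probe sets of a gene thus place the same 3 libraries high. The probe sets of Hoxb4 are annotated to the same source sequence and are not independent readings, while those of Hoxb3 are annotated to different ones.

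A long noncoding RNA gene of the locus, Hoxb5os, whose annotated span covers Hoxb6 and Hoxb5, did not follow them. It measured 10.19, 9.35 and 9.72 in proximal 1, 2 and 3 and 10.16, 9.72 and 9.03 in distal 1, 2 and 3. Its groups overlap as labelled and in the 4 libraries, with a difference of 0.41 (SE 0.20, limma adjusted p = 0.219 over all probe sets). The strand that its probes read is not stated in the labels, so signal from the opposite strand cannot be told apart from its own.

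**Figure D3:**
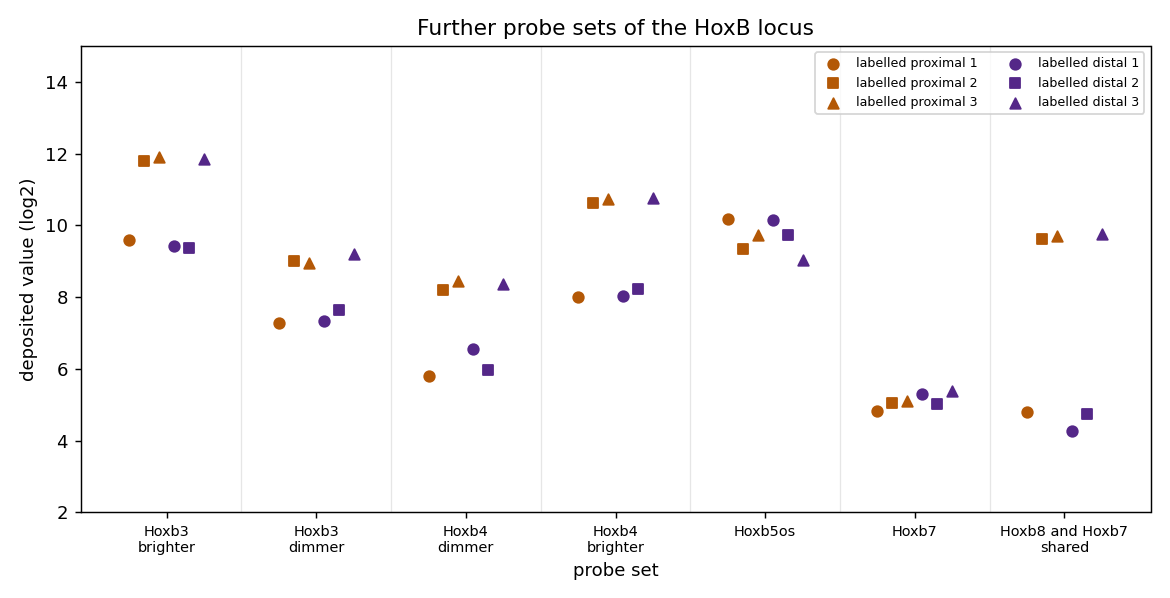
Deposited log2 value (vertical axis) of further probe sets of the locus (horizontal axis), 1 point per library, orange for libraries labelled proximal and purple for those labelled distal. Hoxb3 and Hoxb4 have the same libraries high in both probe sets, the own probe set of Hoxb7 stays between 4.82 and 5.39, and the probe set shared by Hoxb8 and Hoxb7 runs from 4.28 to 9.76.

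The genes on either side of the cluster were mostly even. Of the 6 nearest measured protein-coding genes on each side, 12 in all, 1 passed in the 4 libraries, against 19.2% of all genes, and 0 passed as labelled. The gene that passed is Ttll6, an enzyme that adds glutamate chains to tubulin and the next measured gene beyond Hoxb13. Ttll6 measured 10.01, 7.62 and 7.99 in proximal 1, 2 and 3, and 10.58, 10.70 and 7.83 in distal 1, 2 and 3. The same libraries are high as for Hoxb13, and the difference was 2.84 (SE 0.16, limma adjusted p = 0.000778).

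Calcoco2, an autophagy receptor beyond Ttll6, differed by 0.53 (SE 0.15, limma adjusted p = 0.0652) and was dim, between 4.28 and 5.06. The next 4 genes on that side, Atp5g1, Ube2z, Snf8 and Gip, had differences from -0.23 to -0.18. On the Hoxb1 side, Skap1, an adaptor of T cells, differed by -0.67 (SE 0.18, limma adjusted p = 0.0610). Snx11, Cbx1, Nfe2l1, Copz2 and Cdk5rap3 followed with differences between -0.20 and 0.19. None of these 11 genes passed.

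**Figure D4:**
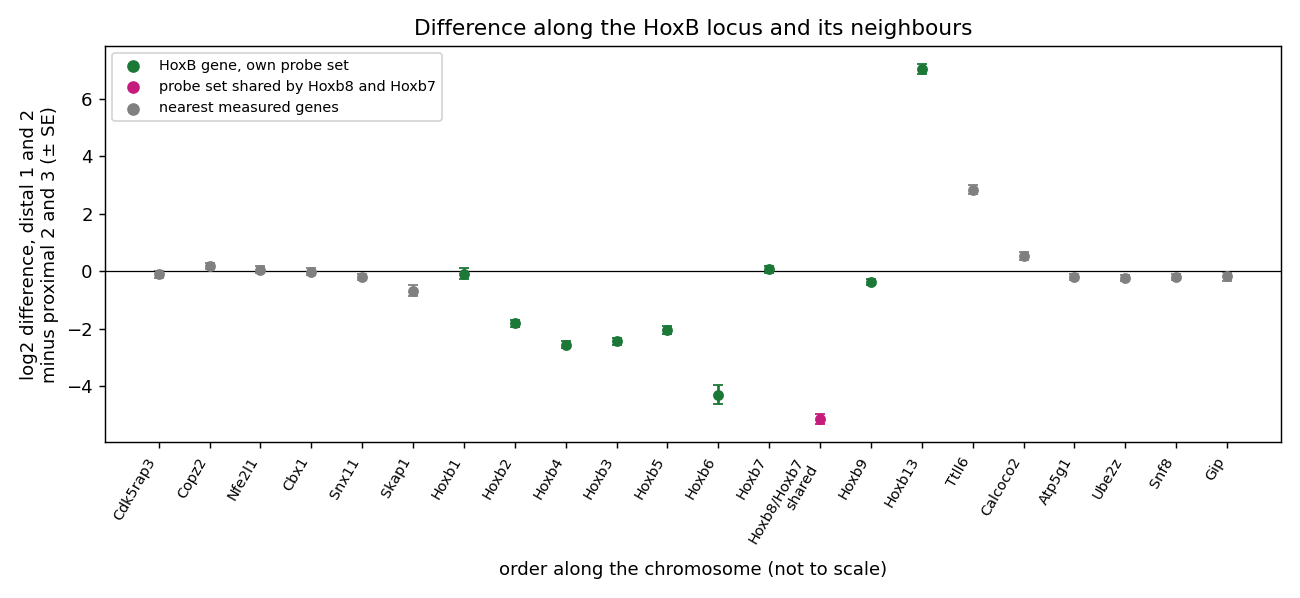
Difference of distal 1 and 2 minus proximal 2 and 3 (vertical axis, log2, bars are the limma SE) for HoxB genes with their own probe set (green), the probe set shared by Hoxb8 and Hoxb7 (pink) and the 6 nearest measured genes on each side (grey), in chromosome order and not to scale. The difference is -0.08 at Hoxb1, -4.30 at Hoxb6, 0.07 at Hoxb7, -5.14 at the shared probe set, -0.38 at Hoxb9 and 7.03 at Hoxb13, and 2.84 at Ttll6 next to it.

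Hox genes of the other clusters are set beside HoxB by paralog group, the sets of genes with the same number that descend from 1 ancestral gene. Of the measured genes, 4 of 9 HoxA genes were higher and 0 lower in distal libraries, 0 of 7 HoxC genes were higher and 2 lower, and 3 of 8 HoxD genes were higher and 3 lower, in the 4 libraries, where 7.71% of all genes were higher and 11.5% lower. Their median differences were 0.47, -0.52 and -0.02, against -1.81 for HoxB. As labelled, 0 genes of the 3 clusters passed.

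In group 2, Hoxa2 differed by 0.67 and Hoxb2 by -1.81. In group 3, Hoxa3 differed by 0.76, Hoxb3 by -2.44 and Hoxd3 by -1.87. In group 4, Hoxb4 differed by -2.56, while Hoxa4 at 0.47 (limma adjusted p = 0.0772) and Hoxc4 at -0.52 (limma adjusted p = 0.194) did not pass. In group 5, Hoxa5 differed by 0.99, Hoxb5 by -2.04 and Hoxc5 by -0.18, the last with a limma adjusted p of 0.301. So the HoxA genes of groups 2, 3 and 5 were higher and their HoxB paralogs lower in the same distal libraries, while the difference between paralogs itself was not tested.

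In group 13, the tail end genes Hoxa13, Hoxb13 and Hoxd13 were all higher in distal libraries, by 1.90, 7.03 and 7.68. These may be only lower bounds, since the proximal pairs averaged 5.37, 6.51 and 4.97. Hoxc13 differed by -0.08 (limma adjusted p = 0.652) and was dim, with a mean of 4.42. In group 9 the differences were small: 0.31 for Hoxa9, -0.38 for Hoxb9, -0.72 for Hoxc9 and -0.65 for Hoxd9, of which only Hoxd9 passed. Hoxc8 and Hoxd8, paralogs of Hoxb8, differed by -3.08 and -2.00, beside the -5.14 of the probe set that Hoxb8 shares. Hoxc10 differed by -2.62, Hoxd10 by 1.08 and Hoxd11 by 1.72, groups in which the HoxB cluster has no gene. The lower pairs of Hoxc8, Hoxc10 and Hoxd3 also averaged under 6.54, so their differences may be only lower bounds too.

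**Figure D5:**
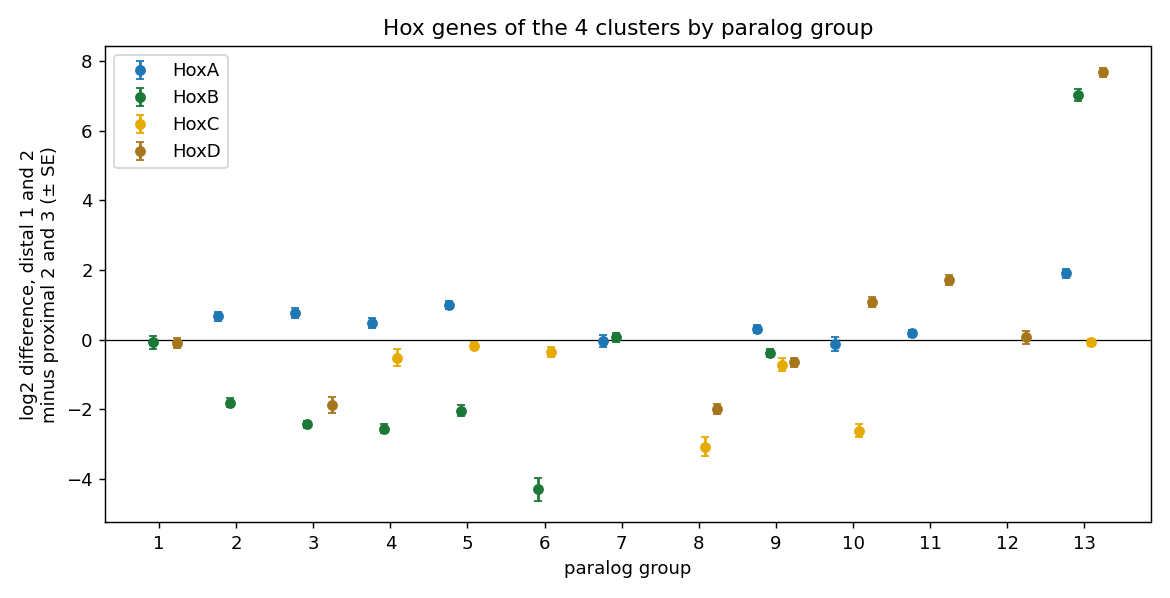
Difference of distal 1 and 2 minus proximal 2 and 3 (vertical axis, log2, bars are the limma SE) for the measured Hox genes of the 4 clusters (colours) by paralog group (horizontal axis). HoxB genes of groups 2 to 6 lie between -1.81 and -4.30, HoxA genes of groups 2 to 5 between 0.47 and 0.99, and Hoxb13 and Hoxd13 stand at 7.03 and 7.68.

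Proteins that work with or act on Hox genes were taken from lists, and their counts are read against the 19.2% of all genes called in the 4 libraries. Of 8 measured TALE cofactors, which bind DNA together with Hox proteins, Pbx3 was higher in distal libraries by 0.66 (SE 0.11, limma adjusted p = 0.0152) and the other 7 did not pass. Meis1 differed by 0.86 (limma adjusted p = 0.0571). Of 12 caudal and retinoic acid regulators, 2 were lower and 0 higher in distal libraries.

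The caudal factor Cdx2, a master regulator of the intestinal epithelium that also acts on Hox genes, measured 13.81, 14.38 and 14.37 in proximal 1, 2 and 3 and 13.30, 13.70 and 14.37 in distal 1, 2 and 3. Its difference in the 4 libraries was -0.88 (SE 0.16, limma adjusted p = 0.0212). Cdx1 differed by 0.07 (limma adjusted p = 0.725). Aldh1a1, an enzyme that makes retinoic acid, was lower in distal libraries by -2.06 (SE 0.10, limma adjusted p = 0.000583).

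Of 26 Polycomb and Trithorax proteins, which keep Hox genes silent or active, 4 were higher and 1 was lower in distal libraries, near the 19.2% of all genes. The higher ones were Kmt2a (0.92), Phc3 (0.65), Jarid2 (0.51) and Kmt2d (0.41), and the lower one Bmi1 (-0.69). As labelled, 0 genes of these lists passed.

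The genes whose profile over the 6 libraries was most like that of Hoxb13, by the root mean square distance of values centred on each gene's mean, were Tgm3 (0.30), Atp12a (0.35), Hoxd13 (0.41) and Sval1 (0.50). Tgm3 encodes a transglutaminase and Atp12a the colonic proton pump. For Hoxb6 the nearest were Hkdc1 (0.25), a hexokinase family member, Slc26a1 (0.26), a sulfate transporter, Asb4 (0.29) and Cubn (0.32), the receptor for vitamin B12 bound to intrinsic factor. Asb4 measured 5.72, 9.48 and 9.57 in proximal 1, 2 and 3 and 5.03, 5.93 and 9.41 in distal 1, 2 and 3, with the same 3 libraries high as for Hoxb6. These distances rest on 6 libraries and describe likeness of profile.

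Markers of the tissue's cell types give the setting of these values. The summed level of 13 epithelial markers, led by Krt19, Lgals4 and Krt8, lay between 17.80 and 17.99 (log2 of the sum) in the 6 libraries, so colon epithelium was present in each. It was 17.99 in proximal 2, proximal 3 and distal 3, and 17.80, 17.85 and 17.88 in proximal 1, distal 1 and distal 2. That is a small difference with the same split of libraries as the HoxB genes that passed. Smooth muscle markers summed to 16.49 to 16.79 in libraries labelled proximal and 16.79 to 16.89 in those labelled distal, and fibroblast markers to 15.07 to 15.31 and 15.08 to 15.39. Of 10 smooth muscle and 11 fibroblast markers, 1 of each was higher in distal libraries in the 4 libraries, near the 7.71% of all genes.

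Some lists held genes that differed in the 4 libraries, though not all of them followed the HoxB profile in each library. Markers of enteric neurons, led by Vip, Snap25 and Uchl1, summed to 13.56, 13.17 and 12.91 in proximal 1, 2 and 3 and to 13.39, 13.63 and 13.09 in distal 1, 2 and 3, with 3 of 11 higher and 0 lower in the 4 libraries. Of the neuron markers that passed, proximal 1 was nearer the proximal pair for Chat and Nos1 and nearer the distal pair for Snap25. Of 7 macrophage markers 4 were lower. Their sums were 13.24, 13.20 and 13.56 in proximal 1, 2 and 3 and 12.99, 12.68 and 13.20 in distal 1, 2 and 3. The macrophage sum of proximal 1 thus lay within the range of proximal 2 and 3, unlike its values for the HoxB genes that passed. Of 8 lymphocyte markers, 4 T cell genes, Cd3e, Cd3d, Cd3g and Cd8a, were lower and the 3 B cell genes Cd79a, Cd79b and Ms4a1 higher. The T cell gene Cd4 did not pass (-0.56, limma adjusted p = 0.0599). Over all genes 7.71% were higher and 11.5% lower. Their part in the HoxB differences was not tested. Epithelial markers were lower for 2 of 13 and endothelial markers for 1 of 6, 1 of 5 adipocyte markers was lower, and 1 of 4 mesothelial and 1 of 7 squamous markers were higher. Of 5 glial and 7 pancreatic acinar markers 0 passed.

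The acinar markers, led by Cela3b, Cela2a and Cpa1, summed to 15.05 in proximal 1 and 15.03 in distal 1, against 8.75 to 9.12 in the other 4 libraries. Beside those sums, Hoxb13 measured 13.39 in proximal 1 and 13.78 in distal 1, and Hoxb6 7.0 and 6.72. The library labelled distal 2, with an acinar sum of 8.75, measured 13.29 for Hoxb13 and 7.72 for Hoxb6. The part of the acinar RNA in these differences was not tested.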

How the data were processed

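Total RNA of 6 colon samples was amplified and labelled with NuGEN kits, per the labels' protocols. The deposited values are log2 expression per probe set, made by the authors with RMA in Partek 6.5 per the submitters' processing notes. The settings of RMA are not given in the sources, and since it aligns the arrays' distributions, a shift common to most genes is removed. Of 45101 probe sets, 64 controls were left out, 34945 have 1 gene symbol, 932 several and 9160 none. Symbols were updated by gene identifier for 34741 with a RefSeq table (GRCm38.p6, names and gene order only), and 204 kept the array's symbol. Start windows are RefSeq's, same assembly.

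The difference of distal minus proximal was fitted on 18193 genes with limma 3.58.1 (R 4.3.3, lmFit and eBayes, no block). The labels do not say which samples share an animal, and the p-values describe only the spread of these libraries. The number of arrays limits the precision. The HoxB genes, lists and the rule for named genes (all HoxB genes, the 6 nearest measured genes on each side, in each list up to 4 genes of smallest adjusted p, and the 4 nearest profiles to Hoxb13 and Hoxb6) were chosen with earlier results of these data known. For lists, the 4-library fit set the order, and cell type lists are given by counts and summed level. Kmt2d, Cdx1, Hoxa4, Hoxa9, Hoxd9 and the other group members were named for completeness after their values were seen.

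The fit was tested on simulated data in which 200 of 18193 genes were changed. It recovered 50% of 2-fold and 87% of 4-fold changes with 6 arrays, and 41% and 79% with 4 arrays. The simulated noise was independent between genes and libraries, and no library carried the profile of the other label. These rates therefore do not give the power of the fit on the 6 libraries as labelled. Alternatives were the replicate number as a block, a minimum gene mean of 9.31, averaged probe sets, median centring, quantile normalization, array weights, a robust trended prior, each library left out, and a threshold of 0.01.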

Additional observations from a re-analysis of the deposited data

How the results depend on the processing

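As labelled, 0 HoxB genes and 0 genes in all passed under every setting tried but array weights and the 4-library choice, out of 9 HoxB genes tested, or 6 with low genes left out. With array weights, limma gave proximal 1, 2 and 3 weights of 0.322, 6.72 and 1.57, and distal 1, 2 and 3 weights of 2.5, 0.403 and 0.291. Distal 2 thus also had a low weight, and proximal 2 and distal 1 had the highest. The weighted fit called 7 HoxB genes (1 higher and 6 lower in distal) and 5579 genes in all. Its weights were estimated from these same values and labels, and were lowest for proximal 1 and distal 3. Its p-values therefore overstate the evidence as those of the 4 libraries do, and its calls are no separate support. Without proximal 1 and distal 3 the unweighted fit called 6 and 3494. Leaving out 1 of the 6 libraries gave 0 calls each time. In the 4 libraries, where the replicate block and array weights were not run, 6 HoxB genes passed with averaged probe sets, both scalings and the threshold of 0.01, and 7 with the trended prior. With low genes left out 6 of 6 passed, with Hoxb2 no longer tested and Hoxb9 added, and leaving out 1 library gave 3 to 6 (3 without proximal 2 or proximal 3, namely Hoxb3, Hoxb4 and Hoxb13). The cause was not tested. A library left alone in its group takes its spread from the other group. Over all genes the count was 1112 at a threshold of 0.01, and 146 to 1633 with 1 library left out. Hoxb9 passed without low genes (limma adjusted p = 0.0311) and with the trended prior (0.0263). All genes were called more often there too, 3242 of 9099 without low genes and 4577 of 18193 with the trended prior. With averaged probe sets 3879 of 18193 were called. The filter on low genes used the mean over the 6 libraries. Hoxb4, Hoxb6 and Hoxb13, whose lower pairs averaged 8.12, 7.22 and 6.51, were kept through the libraries where they are high. The 6 of 6 is therefore no separate support. Calls higher in distal went from 1402 of 3494 to 1733 of 3450 after quantile normalization and 1883 of 3440 after median centring, while the HoxB count stayed at 6 with the same genes.

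Signs turned for genes that never passed. Hoxb1 as labelled was at -0.0, and at 0.13 with array weights, 0.06 with median centring and 0.01 with quantile normalization, and between -0.14 and 0.12 with 1 library left out. In the 4 libraries it was 0.02 with median centring and -0.34 to 0.18 with 1 left out, and Hoxb7 was -0.07 to 0.21 with 1 left out.

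With the replicate number as a block, 0 of 9 HoxB genes and 0 genes in all passed, so the block changed no call. Deviations of same-numbered libraries from their labelled group means correlated at 0.677, -0.448 and 0.678 across genes, and proximal 2 correlated best with distal 3 (0.728). Those group means include proximal 1 and distal 3, which went against their labels, and that shapes the signs. The correlations therefore cannot tell whether libraries of the same number share an animal. Low signal limits Hoxb1, Hoxb7, the lower values of Hoxb2 and Hoxb13 and those of the probe set shared by Hoxb8 and Hoxb7.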
